A study of Homo sapiens with 5 samples.

Results

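Collagens are the triple-helical proteins of the extracellular matrix. The 44 protein-coding genes examined here are those of GENCODE release 44 whose symbol reads COL, a number, A and a number, out of 19663 protein-coding genes. Regions of accessible chromatin, termed hotspots, come from ATAC-seq of MCF10A, an immortalized and non-tumorigenic human mammary epithelial cell line. A total of 5 libraries of these cells, at passage numbers below 30 and all kept in medium with 5% horse serum, EGF, hydrocortisone, cholera toxin and insulin, were pooled by the authors into 1 list of 181723 hotspots on hg38, each with a score from the hotspot caller that is used as given. The series therefore holds 1 group with no treated counterpart, and the comparison made here is between the collagen genes and all protein-coding genes. Since the libraries were pooled before calling, no value has a replicate error, the sequencing depth is unknown and no test between libraries could be made. All values come from 1 established cell line.

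Collagen chains wind around each other as triple helices, and the chains of a molecule may be products of a single gene or of several. Fibrillar collagens build the fibrils of stroma, skin, bone and cartilage and are made mainly by fibroblasts and related cells. Collagen IV forms the sheet-like network of the basement membrane beneath epithelia. Collagen VII anchors that membrane to the stroma, and collagen XVII spans the plasma membrane in the hemidesmosomes of basal epithelial cells. FACIT collagens decorate the surface of fibrils, beaded filament collagens form microfibrils, and multiplexins lie in basement membrane zones.

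Hotspots that reach within 1000 bp of the transcription start site (TSS) of a coding transcript are termed promoter hotspots. The labelled cell type was checked at the promoters of marker genes. Of 11 epithelial markers 9 (81.8%) had a promoter hotspot, near the 74.9% of all protein-coding genes, with scores of 15.9 to 35.3. Their median of 24.2 compares with 20.7 over all genes with a promoter hotspot, and KRT14 and TP63 had none. Of 11 fibroblast markers 7 had one, with scores of 5.07 to 12.4, and LUM, FAP, PRRX1 and POSTN had none. Of 4 endothelial markers 3 had one, with scores of 4.96 to 6.30, and TEK had none. Of 4 chondrocyte markers, SOX9 had a score of 33.7, ACAN had 5.22, and MATN1 and COMP had none. Of 3 immune markers, CD14 had a score of 16.5, whereas PTPRC and CD3E, which define leukocytes and T cells, had none. SOX9 and CD14 thus lay within the epithelial range, and promoter hotspots alone did not separate the epithelial markers from every other marker. Over the whole list the score ran between 4.36 and 912, with a median of 5.81 and an upper quartile of 8.62.

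The sequences below carry the findings that follow. Each was read from hg38 within the hotspot named, contains no annotated exon of a protein-coding gene and is written on the strand of the gene (for the collagen IV pairs, on the plus strand). Of the motifs searched, capitals mark the matches found on either strand, which are to CCAAT, to GGGCGGG (the SP/KLF motif), to TATAAA, to TGAGTCA or TGACTCA (AP-1) and to AGGGGGC (a core of the CTCF motif). No matches overlapped each other. In the last pair of sequences capitals mark instead 1 unit of a tandem repeat. The first 3 stretches lie between the opposed TSSs of the collagen IV gene pairs.
COL4A1 and COL4A2, chr13:110307158-110307257: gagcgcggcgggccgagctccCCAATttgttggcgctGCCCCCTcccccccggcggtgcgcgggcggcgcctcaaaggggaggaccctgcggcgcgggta
COL4A3 and COL4A4, chr2:227164454-227164623: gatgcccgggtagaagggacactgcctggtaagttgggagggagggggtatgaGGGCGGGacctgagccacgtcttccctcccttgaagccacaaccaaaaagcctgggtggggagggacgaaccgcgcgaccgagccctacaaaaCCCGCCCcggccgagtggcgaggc
COL4A5 and COL4A6, chrX:108439588-108439837: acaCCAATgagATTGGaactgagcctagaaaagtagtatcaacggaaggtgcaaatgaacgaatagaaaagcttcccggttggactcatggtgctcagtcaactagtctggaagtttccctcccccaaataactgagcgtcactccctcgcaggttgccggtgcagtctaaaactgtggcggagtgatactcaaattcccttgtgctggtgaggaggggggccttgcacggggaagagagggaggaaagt
The next pair lies directly upstream of the genes of the epithelial anchoring complex, both on the minus strand.
COL7A1, chr3:48595330-48595579: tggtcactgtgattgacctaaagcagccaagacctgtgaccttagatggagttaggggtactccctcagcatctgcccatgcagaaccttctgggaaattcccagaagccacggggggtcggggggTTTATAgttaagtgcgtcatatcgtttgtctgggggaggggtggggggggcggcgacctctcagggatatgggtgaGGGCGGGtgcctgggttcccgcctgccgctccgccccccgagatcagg
COL17A1, chr10:104085921-104086130: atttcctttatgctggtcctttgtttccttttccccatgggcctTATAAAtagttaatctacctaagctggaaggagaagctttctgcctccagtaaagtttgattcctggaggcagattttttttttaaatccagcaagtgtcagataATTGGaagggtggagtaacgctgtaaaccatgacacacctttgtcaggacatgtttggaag
The following 3 stretches of 120 bp are the middle of the COL1A1 hotspot (minus strand) and the surroundings of the first AP-1 match in the strongest single-copy hotspots away from the promoters of COL7A1 (minus strand) and COL4A2 (plus strand).
COL1A1, chr17:50200365-50200484: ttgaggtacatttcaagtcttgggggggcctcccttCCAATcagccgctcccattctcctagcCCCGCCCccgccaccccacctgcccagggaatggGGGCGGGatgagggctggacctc
COL7A1 upstream, chr3:48598409-48598528: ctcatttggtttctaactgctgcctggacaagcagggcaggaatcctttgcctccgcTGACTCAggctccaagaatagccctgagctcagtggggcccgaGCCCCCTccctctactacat
COL4A2 intron, chr13:110346721-110346840: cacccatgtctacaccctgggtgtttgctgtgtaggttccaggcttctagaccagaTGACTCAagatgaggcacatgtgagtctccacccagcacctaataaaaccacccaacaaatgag
The final pair is the middle of the strongest hotspots inside COL5A1 (plus strand) and COL23A1 (minus strand), which are tandem repeats with units of 56 and 60 bases.
COL5A1 intron, chr9:134729624-134729743: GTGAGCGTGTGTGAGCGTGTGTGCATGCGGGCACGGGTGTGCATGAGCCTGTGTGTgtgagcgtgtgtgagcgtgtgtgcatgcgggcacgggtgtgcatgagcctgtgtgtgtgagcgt
COL23A1 intron, chr5:178525046-178525165: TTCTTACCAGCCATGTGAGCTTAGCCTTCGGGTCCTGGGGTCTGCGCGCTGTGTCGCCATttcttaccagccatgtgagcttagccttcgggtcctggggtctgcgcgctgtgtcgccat

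A promoter hotspot was found at 28 of the 44 collagen genes (63.6%), compared with 74.9% of all genes. Their scores were lower as well. The median of the highest promoter score was 6.41 for the collagen genes with a promoter hotspot and 20.7 for all genes with one. A promoter score of 10 or more was reached at 7 collagen genes (15.9%), compared with 57.9% of all genes. These 7 were COL12A1, COL1A1, COL7A1 and the collagen IV genes COL4A1 to COL4A4. Only COL12A1, COL1A1, COL4A3 and COL4A4 lay above the median of all genes. At 10 collagen genes the highest promoter score was below the median of the whole hotspot list. With hotspots above that median alone, 18 collagen genes had a promoter hotspot, and the share of all genes went from 74.9% to 67.3%. These shares describe complete lists of genes, and no test was applied to them.

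**Figure D1:**
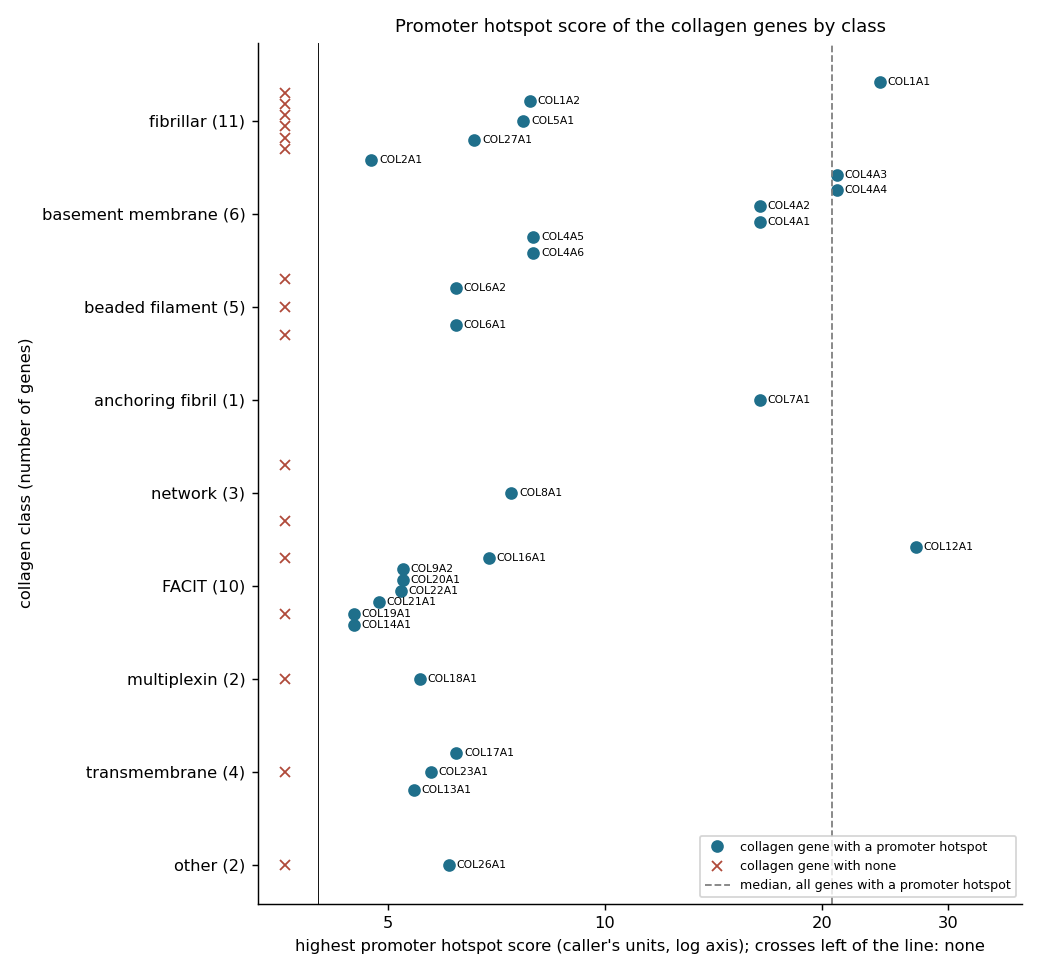
Highest promoter hotspot score of each collagen gene (horizontal log axis, units of the hotspot caller), with 1 point per gene and genes grouped by class down the page. Crosses left of the line are genes without a promoter hotspot, and the dashed line is the median of 20.7 over all genes with one. Collagen IV, COL7A1, COL1A1 and COL12A1 lie to the right of the remaining collagen genes.

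All 6 basement membrane genes, those of collagen IV, had a promoter hotspot, with a median score of 16.4. The only other class marked at every gene was the anchoring fibril, which holds 1 gene, COL7A1. The 6 genes are arranged as 3 head-to-head pairs, each transcribed outward from a common promoter region, and in each pair 1 hotspot lay within 1000 bp of TSSs of both genes. The hotspot between COL4A1 and COL4A2, the chains of the most widespread collagen IV, covered chr13:110306777-110307812 with a score of 16.4 and a width of 1036 bp. The canonical TSSs of this pair are separated by 126 bp, and the hotspot covered both. The hotspot between COL4A3 and COL4A4, chains of specialised basement membranes such as that of the kidney glomerulus, covered chr2:227163829-227165256 with a score of 21.0, above 93.4% of all hotspots. It also covered both canonical TSSs, which are 418 bp apart.

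The pair on the X chromosome was lower. The hotspot shared by COL4A5 and COL4A6, whose products form molecules of epithelial and smooth muscle basement membranes, covered chrX:108439504-108439848 with a score of 7.96 and a width of 345 bp. It overlapped the canonical TSS of COL4A5 but ended 1082 bp short of that of COL4A6, where a separate hotspot with a score of 5.11 was found. Thus the order of the pairs was COL4A3/COL4A4, COL4A1/COL4A2 and COL4A5/COL4A6, an order whose error cannot be given from 1 pooled list. Of the printed stretches between the TSSs, that of COL4A1/COL4A2 held CCAAT and the CTCF core, that of COL4A3/COL4A4 held GGGCGGG 2 times, and that of COL4A5/COL4A6 held CCAAT 2 times. Upstream windows of the same lengths at all genes held CCAAT in 20.9% (100 bp) and 34.4% (250 bp), the CTCF core in 9.83% (100 bp) and GGGCGGG in 41.7% (170 bp), each counted as at least 1 match.

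**Figure D2:**
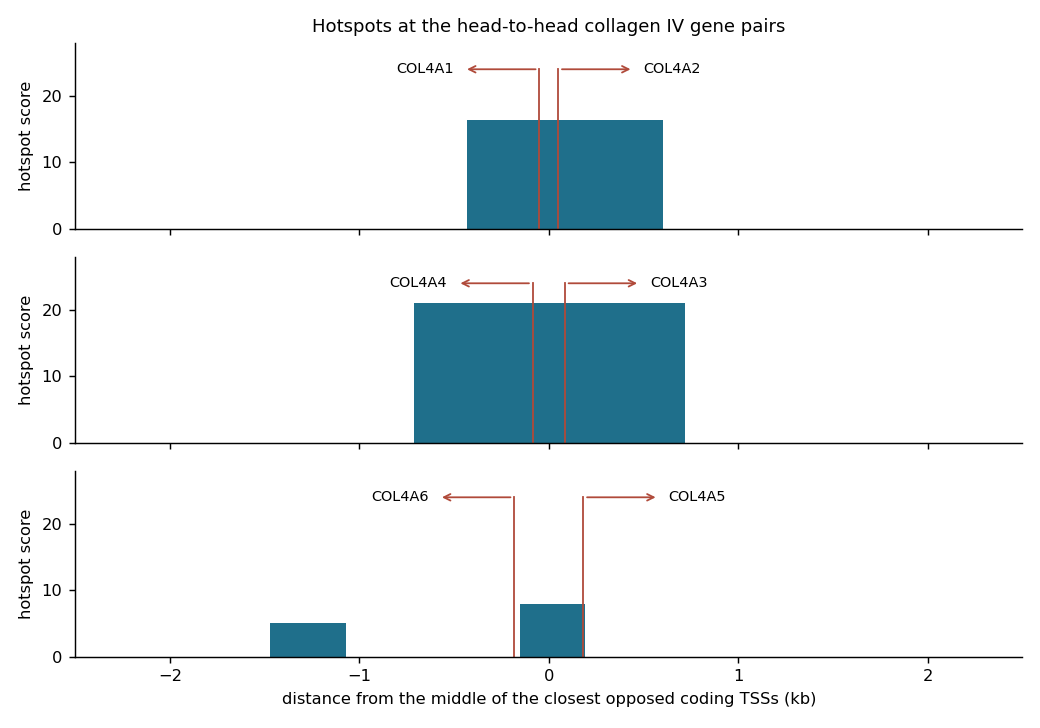
Hotspots at the 3 head-to-head collagen IV pairs, with hotspot score on the vertical axis and distance from the middle of the closest opposed coding TSSs (kb) on the horizontal axis. Bars span each hotspot, and red lines with arrows are the closest opposed TSSs and the direction of transcription. A single hotspot covers both lines at the upper 2 pairs, while at the X-linked pair it covers only that of COL4A5.

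COL7A1, which encodes the anchoring fibril chain, had a hotspot with a score of 16.4 over its TSS (chr3:48594980-48596232). Matches to the AP-1, SP/KLF, CCAAT and TATA motifs were among those it held. A second, stronger hotspot with a score of 32.0 lay 3.75 kb upstream (chr3:48598136-48600023) within the neighbouring gene UQCRC1, a subunit gene of mitochondrial complex III. It is assigned to COL7A1 only because that coding TSS is the nearest. With TSSs of every transcript it lay 1762 bp from a TSS of UQCRC1 and was assigned to that gene, and COL7A1 kept 1 of its 3 hotspots. No hotspot had its midpoint in the 31.3 kb of the COL7A1 gene body.

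COL17A1, the hemidesmosomal collagen, differed from COL7A1. Its promoter hotspot (chr10:104085921-104086460) had a score of only 6.22 and began 41 bp upstream of the TSS without covering it. The promoter of COL17A1 has few CpG dinucleotides. The ratio of observed to expected CpG within 500 bp of the TSS was 0.125 for COL17A1 and 0.547 for COL7A1, whereas the median of all genes was 0.726. Both upstream stretches held a TATAAA match, as did 8.07% (210 bp) and 9.31% (250 bp) of upstream windows of all genes. The strongest of the 7 hotspots assigned to COL17A1 had a score of 9 and lay in an intron.

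Of the 11 fibrillar collagen genes, 5 had a promoter hotspot. COL1A1, the α1 chain of collagen I, had a score of 24.1 (chr17:50199635-50201214), but the hotspot did not reach the canonical TSS. Its near edge lay 417 bp inside the gene, its midpoint lay in an intron, and it overlapped the TSS of a second coding transcript. COL1A2, which encodes the partner chain α2, had hotspots with scores of 7.87 and 5.99 on either side of its TSS, the nearer 539 bp inside the gene and the other 885 bp upstream. At neither gene of collagen I was the canonical TSS itself covered. COL5A1 (score 7.71), COL27A1 (6.59) and COL2A1 (4.74), the cartilage collagen, had promoter hotspots of low score.

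The other 6 fibrillar genes, COL3A1, COL5A2, COL5A3, COL11A1, COL11A2 and COL24A1, had none. With TSSs of every transcript, however, COL5A3 and COL11A1 had one. COL3A1 and COL5A2, the chains of collagen III and of collagen V that accompany collagen I in stroma, are neighbours on chromosome 2. No hotspot had its midpoint in the 38.4 kb of COL3A1 or the 193 kb of COL5A2, although chromosome 2 held 6.03 hotspots per 100 kb. The nearest hotspot lay 29725 bp from the TSS of COL3A1 and 27004 bp from the closest TSS of COL5A2. COL5A1, whose product combines with that of COL5A2, had 25 hotspots in its gene body of 203 kb. Thus only 1 of these partner genes of collagen V was marked, while COL1A1 and COL1A2 both were. With a window of 500 bp, however, COL1A2 had no promoter hotspot.

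The FACIT class had the widest range. COL12A1, a collagen of fibril surfaces, had the highest promoter score of all collagen genes, 27.0, in a hotspot that covered its canonical TSS (chr6:75205615-75206438). It had 3 promoter hotspots in all, of which the others had scores of 7.87 and 5.88. The promoter scores of the other 7 FACIT genes with a promoter hotspot lay between 4.48 (COL14A1 and COL19A1) and 6.90 (COL16A1). COL9A1 and COL9A3, chains of the cartilage collagen IX, had no promoter hotspot, and COL9A2, the remaining chain, had one with a score of 5.24.

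Beaded filament genes were split. COL6A1 and COL6A2, neighbours on chromosome 21, had promoter scores of 6.21 each, whereas COL6A3, COL6A5 and COL6A6 had none. The hotspot behind the COL6A2 value had its midpoint 21525 bp downstream of the canonical TSS, near another coding TSS. With the canonical TSS alone the COL6A2 score was 6.15. Of the network collagens, COL8A1 had a score of 7.42, and COL8A2 and COL10A1, the collagen of hypertrophic cartilage, had none. The multiplexin COL18A1 had a score of 5.54 at an internal TSS, and COL15A1 had none. Of the other transmembrane collagens, COL23A1 had 5.73, COL13A1 had 5.43 and COL25A1 had none. COL26A1 had 6.08 and COL28A1 had none.

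Whether a TSS was covered also differed. A hotspot overlapped the canonical TSS itself at 11 of the 44 collagen genes, compared with 60.9% of all genes. These included all 6 collagen IV genes, COL7A1 and COL12A1. The promoter hotspots of COL14A1, COL16A1, COL18A1, COL19A1 and COL21A1 were found only at other coding TSSs. With the canonical TSS alone, 23 collagen genes (52.3%) had a promoter hotspot, compared with 70.6% of all genes. The window of 1000 bp separated few genes narrowly. Just inside were COL26A1, with 868 bp between hotspot and TSS, and COL14A1, with 861 bp. Just outside were COL9A3, with 1472 bp, and COL28A1, with 1486 bp. With TSSs of every transcript, COL5A3, COL6A3, COL9A3 and COL11A1 gained a promoter hotspot. In that setting 32 collagen genes had one, compared with 77.2% of all genes.

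CpG content is a known correlate of promoter accessibility. The collagen genes were therefore set beside all genes in the lower 40% and the upper 60% of the promoter CpG ratio. Within these broad bins the ratios were not matched. Among genes in the lower 40% of the promoter CpG ratio, 15 of 25 collagen genes (60.0%) had a promoter hotspot, compared with 51.2% of all genes. In the upper 60%, 13 of 19 collagen genes (68.4%) had one, compared with 90.7% of all genes. The collagen genes without a promoter hotspot had a median CpG ratio of 0.562, whereas that of all genes without one was 0.313. COL15A1 (ratio 0.867), COL25A1 (0.883) and COL9A3 (0.890) were CpG-rich and had no promoter hotspot. COL28A1 (0.0793) and COL3A1 (0.292) were CpG-poor and had none either.

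Hotspots were next assigned by their midpoint to the nearest coding TSS within 100 kb. A total of 485 hotspots were assigned to collagen genes, with a median of 8 per gene, compared with 5 over all genes. All 44 collagen genes had at least 1, as did 91.8% of all genes. At least 20 hotspots were assigned to 8 collagen genes (18.2%), compared with 5.52% of all genes. Collagen genes are long, with a median of 145 kb, compared with 27.3 kb over all genes. The part of gene length in these counts was not tested. In genes of 100 kb or more, the median density in the gene body was 6.34 hotspots per 100 kb for 26 collagen genes and 5.35 for all 3589 such genes.

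The highest count was that of COL23A1, a transmembrane collagen, with 39 hotspots. It was followed by COL5A1 with 37, COL4A2 with 31, COL22A1 with 30 and COL4A1 with 26. COL6A1 had 21, COL6A2 and COL13A1 had 20 each, COL18A1 had 19, and COL4A4 and COL28A1 had 15 each. This order depended on the TSSs and the limit used. With canonical TSSs COL5A1 led with 37, while COL23A1 had 24, COL22A1 had 17, COL4A2 had 13, COL13A1 had 12 and COL4A1 had 8. With a limit of 50 kb COL4A2 led with 31, while COL23A1 had 24, COL5A1 had 21 and COL22A1 had 16. With TSSs of every transcript COL5A1 led with 49 and COL23A1 had 44. The 8 genes with at least 20 held 224 of the 485 hotspots (46.2%). COL23A1 lies on chromosome 5 beyond 120 Mb, a stretch with 128 hotspots per Mb. Chromosome 20, which carries COL9A3 and COL20A1, had 139 per Mb, and the rest of the genome had 58.6 per Mb. The part of these dense regions in the counts of COL23A1, COL9A3 and COL20A1 was not tested.

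**Figure D3:**
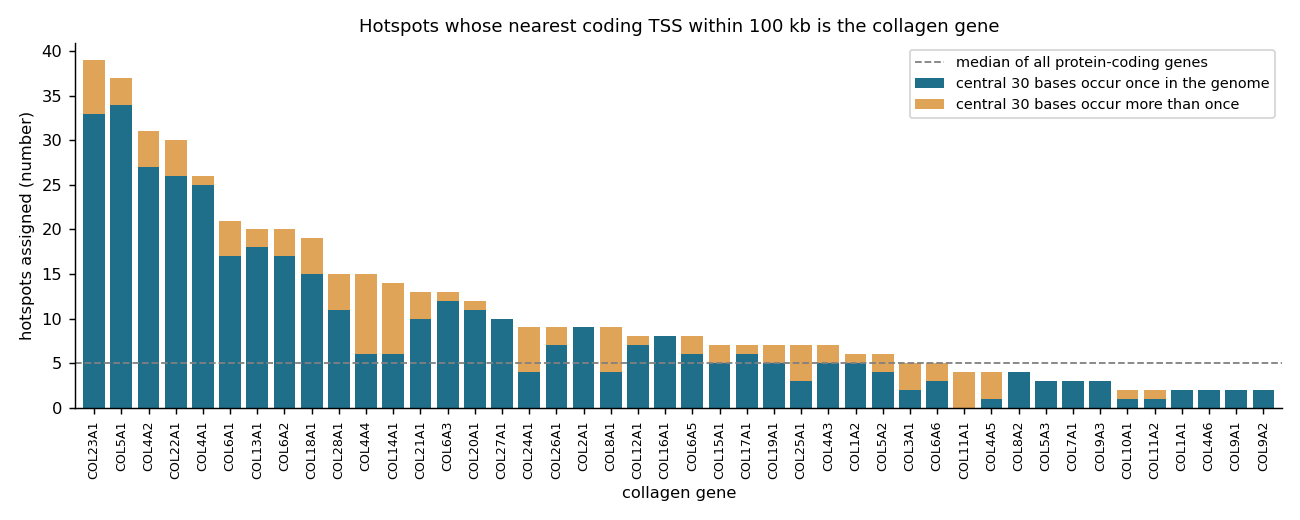
Number of hotspots whose nearest coding TSS within 100 kb is the collagen gene (vertical axis), for the 44 collagen genes in descending order. The lower, blue part of a bar counts hotspots whose central 30 bases occur once in the genome, the upper, orange part those whose central bases recur, and the dashed line is the median of 5 over all genes. COL23A1, COL5A1, COL4A2 and COL22A1 have 30 or more.

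Locations were counted for the collagen hotspots only, so no share over all assigned hotspots stands beside them. Of the 485 hotspots, 277 (57.1%) lay in an intron and 29 (5.98%) in an exon of the gene they were assigned to. Another 13 (2.68%) lay in a different protein-coding gene and 166 (34.2%) in none. The median distance to the nearest TSS was 23.3 kb for collagen hotspots and 16.5 kb for all assigned hotspots. Their median score was 5.54, compared with 5.81 for all assigned hotspots, and 12.4% of them reached a score of 10, compared with 21.1%. At the limit of 100 kb, the last hotspot inside lay 99.1 kb from COL19A1 with a score of 8.05, and the first outside lay 100.1 kb from COL23A1 with a score of 5.50.

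The strongest assigned hotspots were not at promoters. An intronic hotspot of COL23A1 (chr5:178524485-178525726) had the highest score, 156. It was followed by hotspots in introns of COL14A1 (104), COL25A1 (97.5) and COL28A1 (51.3) and by one 60.2 kb upstream of COL24A1 (50.5). Each of these 5 had a middle that is repeated in the genome. The 30 bases at the middle of each occur 12 times in the reference chromosomes for COL23A1, 4915 times for COL14A1, 7714 times for COL25A1, 17157 times for COL28A1 and 273 times for COL24A1. The COL14A1 hotspot was only 31 bp wide. The middle of the COL23A1 hotspot is the tandem repeat of 60 bases printed above, and none of the motifs searched occurred anywhere in its 1242 bp. A COL5A1 intron hotspot with a score of 26.4 had the tandem repeat of 56 bases at its middle. The part of repeats in these scores was not tested.

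Across all 485 collagen hotspots, 385 (79.4%) had a central sequence that occurs once, compared with 68.9% of the whole list. Of the 35 collagen hotspots with a score of at least 14, however, 19 (54.3%) were single-copy, compared with 67.1% in the whole list. All 44 promoter hotspots of the collagen genes were single-copy, compared with 93.3% of all promoter hotspots. None of the 485 shared a word of 24 bases with the mitochondrial genome. Only 56 of the 181723 hotspots of the whole list did, so this does not set the collagen hotspots apart. Thus the promoter values rest on hotspots of single-copy sequence, whereas the 5 highest scores do not.

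**Figure D4:**
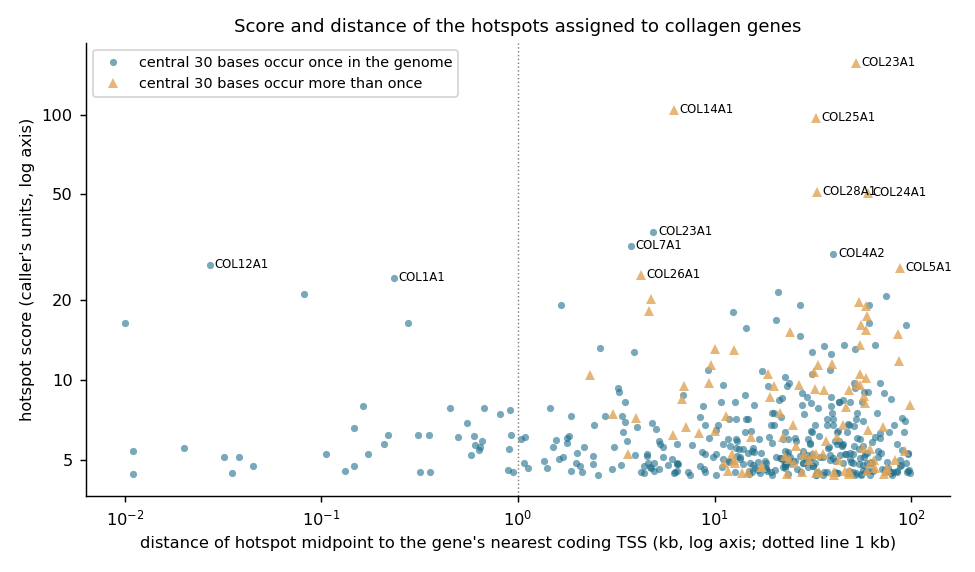
Score (vertical log axis, units of the hotspot caller) of the 485 hotspots assigned to collagen genes against the distance of their midpoint from the gene's nearest coding TSS (horizontal log axis, kb). Blue circles are hotspots whose central 30 bases occur once in the genome, orange triangles are the others, and the dotted line marks 1 kb. The 5 highest scores, 50.5 to 156, all belong to triangles beyond 1 kb.

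Among single-copy hotspots away from promoters, the highest scores were 36.0 in an intron of COL23A1, 4.87 kb inside the gene, 32.0 upstream of COL7A1 (within UQCRC1, as above) and 29.7 in an intron of COL4A2. The COL4A2 hotspot (chr13:110346472-110348406) was 1935 bp wide, lay 40.1 kb from the nearest TSS and held the AP-1 site printed above. COL28A1, which had no promoter hotspot, had intronic hotspots with scores of 21.4 and 19.1. The edge of the one scoring 19.1 lay 1486 bp from a coding TSS of COL28A1, so that a window of 2000 bp counts it as a promoter hotspot. A hotspot with a score of 20.7 lay downstream of COL4A1, outside any protein-coding gene. It was 74.9 kb from the nearest coding TSS of COL4A1 and 212 kb from the canonical TSS. COL1A2 had a hotspot with a score of 16.1 and an AP-1 match, 93.7 kb upstream of its TSS.

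AP-1 is the factor family whose sites mark many distal elements of epithelial cells. An AP-1 match was present in 67 of the 485 collagen hotspots (13.8%), compared with 12.6% of the whole list. The most hotspots with a match were at COL22A1 (9 of 30 assigned hotspots), COL5A1 (7 of 37) and COL13A1 (5 of 20). These were among the genes with the most assigned hotspots. Of the 44 promoter hotspots of the collagen genes 5 (11.4%) held one, compared with 11.1% of all promoter hotspots. They were those of COL6A1, COL7A1, COL8A1, COL14A1 and COL17A1. TEAD motifs (ACATTCC or GCATTCC) were in 9.90% of collagen hotspots and 9.84% of all, and RUNX motifs (TGTGGTT or TGCGGTT) in 7.22% and 7.42%. The CTCF core was in 12.8% of collagen hotspots, compared with 9.47% of all hotspots and 11.2% of all assigned hotspots. The ETS motif CCGGAAG was in 2.89%, compared with 3.75%. A match describes the letters and does not show that the factor was bound.

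In the 250 bp upstream of the canonical TSS the collagen promoters had no ETS motif and no E-box (CACGTG) in any of the 44 genes, compared with 11.8% and 7.85% of all genes. GGGCGGG was upstream of 23 (52.3%), compared with 45.9% of all genes. The CTCF core was upstream of 15 (34.1%), compared with 18.0%, and TATAAA upstream of 8 (18.2%), compared with 9.31%. In whole hotspots TATAAA was on the contrary less frequent, in 6.39% of collagen hotspots, compared with 9.05% of all hotspots and 8.54% of all assigned hotspots. The 8 genes with TATAAA were COL1A1, COL1A2, COL6A2, COL6A6, COL7A1, COL10A1, COL13A1 and COL17A1.

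Genes of the collagen pathway lay between the collagen genes and all genes in median promoter score. Of 53 genes of collagen folding, export, cleavage, crosslinking, binding and degradation, 42 (79.2%) had a promoter hotspot, compared with 74.9% of all genes. Their median score was 13.7, compared with 6.41 for the collagen genes and 20.7 for all genes. For folding and modification the count was 16 of 18, with a median score of 26.0. The highest values were those of P4HA1 (46.9), a prolyl hydroxylase subunit, PPIB (46.8), a prolyl isomerase, FKBP14 (39.8), a further isomerase, and PLOD2 (39.1), a lysyl hydroxylase. ITGB1, the β1 chain of the collagen-binding integrins, had 40.2. All 5 export genes had one, with a median of 26.7. SERPINH1, the collagen chaperone, had 10.4.

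The classes that act on collagen outside the cell had lower median scores than folding and export, but the ranges overlapped. Scores ran from 5.24 to 46.9 for folding and modification and from 5.36 to 40.2 for receptors. The median was 8.81 over the 6 of 8 propeptide cleavage genes with a promoter hotspot, 13.2 over 4 of 5 crosslinking genes, 12.4 over 7 of 10 receptor genes and 11.4 over 4 of 7 degradation genes. LOX, which crosslinks collagen and elastin, had a score of 18.8, and the epithelial collagen receptor DDR1 had 12.4. No promoter hotspot was found at P4HA3 or P3H3 (hydroxylases), ADAMTS2 or PCOLCE (procollagen cleavage), LOXL4 (crosslinking), the receptor genes DDR2, GP6 and LAIR1, or MMP8, MMP9 and CTSK (proteases).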

How the data were processed

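The authors mapped 5 paired-end ATAC-seq libraries of MCF10A cells to hg38 (Bowtie2, version not given in the sources used here), pooled them, dropped duplicates and ran Hotspot at a false discovery rate of 0.01, with satellite regions omitted. No Tn5 shift is stated. The deposited list gives chromosome, start, end and a score per hotspot as the authors' run wrote it, with no stated reference level. It was used as given, not scaled by depth or width.

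TSSs were those of coding transcripts of 19663 genes in GENCODE release 44, and 73.1% of hotspots were assigned to the nearest within 100 kb. Overlap and assignment were tested on simulated hotspots. Motifs were searched on both strands, in whole hotspots and in 250 bp upstream of canonical TSSs. Copies of the 30 bases at each hotspot's middle were counted in the reference chromosomes. Sequence was read from the hg38 FASTA.

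Members, gene lists and motifs were chosen with earlier results of these data known, and the score limits of 10 and 14 and the copy count after seeing values. Named in full were the 10 genes with the highest promoter scores, the 10 with the most assigned hotspots, genes without a promoter hotspot, the collagen IV pairs and, among pathway genes, the 5 highest scores and those without one. Other collagen genes are named by class. Further genes and hotspots named were chosen after their values were seen. Alternatives were other windows, limits and TSS sets, and subsets of hotspots. Software was Python 3.11.15 with numpy 2.4.6, pandas 2.3.3, scipy 1.17.1 and matplotlib 3.10.9.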

Additional observations from a re-analysis of the deposited data

How the results depend on the processing

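The list pools all libraries, so none could be left out. No paired analysis was possible because the results come from no test and the pooled list carries no replicate numbers. The count of collagen genes with a promoter hotspot stayed between 23 and 32 under other windows, TSS sets and overlap by midpoint. This range includes settings chosen after seeing the data, namely TSSs of every transcript, single-copy hotspots and leaving out the dense regions. In the same settings the share of all genes lay between 70.6% and 78.8%. Leaving out the dense regions also left out COL9A3, COL20A1 and COL23A1, and 26 of the remaining 41 collagen genes had one. The count fell to 18 with hotspots above the median score, where all genes kept 67.3%. With these hotspots the assigned hotspots numbered 216, with a median of 4 per collagen gene and 2 over all genes, and AP-1 was in 20.8%, compared with 17.7% of all hotspots above the median score, while the CTCF core was in 14.4%, compared with 13.2%. A limit of 50 kb gave a median of 5, compared with 4. The median promoter score was 6.22 with a window of 500 bp, 6.59 with 2000 bp and 6.59 with canonical TSSs. In the central 120 bp AP-1 was in 7.01% of collagen hotspots and the CTCF core in 4.95%, compared with 5.82% and 2.90%. These stretches are shorter than whole hotspots. Single-copy hotspots gave a median of 5.50 per collagen gene, compared with 3. Unknown depth limits all statements about absence.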
